A study of Mus musculus with 6 samples.

Results

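The subunits of the mitochondrial respiratory chain were followed in the medial prefrontal cortex of mice on 2 diets. Members were the probe sets annotated to exactly 1 gene symbol that began with Ndufa, Ndufb, Ndufc, Ndufs, Ndufv, Uqcr, Atp5 or with Cox followed by a digit from 4 to 8, or that was Sdha, Sdhb, Sdhc, Sdhd or Cycs. A probe set is a group of short probes that read 1 stretch of a transcript. The rule gave 183 probe sets of 91 genes, out of 34958 probe sets of 18194 genes with 1 symbol and 45101 probe sets in the table. By complex they were 88 probe sets of complex I, 9 of complex II, 16 of complex III, 35 of complex IV, 31 of complex V and 4 of cytochrome c. The rule used names only and no measured value. It also took 8 Ndufaf genes, which encode assembly factors of complex I and no subunit. A further 10 probe sets that listed several symbols, at least 1 of them a chain gene, fell outside the rule.

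The samples came from 6 male 129S1/SvImJ mice, an inbred strain, at 8 to 10 weeks of age, all of them killed 2 h after fear extinction training. Of these, 3 were on the diet labelled ZnR, described in the labels as a zinc diet (mice 3, 7 and 11), and 3 were on the control diet (mice 1, 5 and 9). The sources used here do not give the composition of the ZnR diet. Tissue of both hemispheres from each mouse gave 1 Affymetrix Mouse430_2 array. Values are log2 signals per probe set, on which a difference of 1 is a doubling. Signals of different probe sets are not compared as amounts of transcript.

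The respiratory chain sits in the inner mitochondrial membrane. Complex I takes electrons from NADH and complex II from succinate, complex III passes them on to the small carrier cytochrome c, and complex IV hands them to oxygen. Complexes I, III and IV pump protons, and complex V, the ATP synthase, uses the proton gradient to make ATP, which neurons spend mainly on ion pumping and synaptic transmission. All members are encoded in the nucleus. Some core subunits of every complex except complex II are encoded in mitochondrial DNA, and these were not analysed here.

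No respiratory chain probe set passed the test for a difference between ZnR and control mice. The filter on low signals, a log2 value above 4 on at least 3 of the 6 arrays, kept 160 of the 183 probe sets, for 86 of the 91 genes. None of the 160 was called higher or lower by limma at a Benjamini-Hochberg adjusted p under 0.05, and the smallest adjusted p was 0.114. Over the whole table, 373 of 25381 probe sets or 1.47% were called, 0.461% higher and 1.01% lower in ZnR mice. At an unadjusted p under 0.05, 6 of the 160 members were higher and 0 lower, or 3.75%, against 17.0% of all probe sets tested. These shares were not matched for signal, and the fit used the same variance prior at every signal. Where the prior followed signal, the standard error of Ndufa3 was 0.042 against 0.077 in the main fit, and 2 member probe sets passed.

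Differences were small and mostly above 0. With each gene read by its kept probe set of highest mean signal, 73 of 86 chain genes averaged higher in ZnR mice and 13 lower, with a median log2 difference of 0.069 (1.05-fold). Over all 11749 genes 57.6% averaged higher, with a median of 0.029. Without the filter, 76 of 91 chain genes averaged higher, with a median of 0.066. The quartiles of the chain genes were 0.023 and 0.12, and those of all genes -0.084 and 0.15. Moderated standard errors of the chain genes ran from 0.075 to 0.18, with a median of 0.083 against 0.11 over all genes. Chain genes were read at higher signal, with a median log2 mean of 11.6 against 7.82 over all genes. Quartiles, errors and intervals were not matched for signal. The 95% interval lay inside a 1.5-fold change in either direction for 85 of 86 chain genes (98.8%), and inside 1.2-fold for 34 (39.5%). The same shares of all genes were 83.1% and 15.4%. The exception at 1.5-fold was Ndufaf6, a complex I assembly factor.

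**Figure D1:**
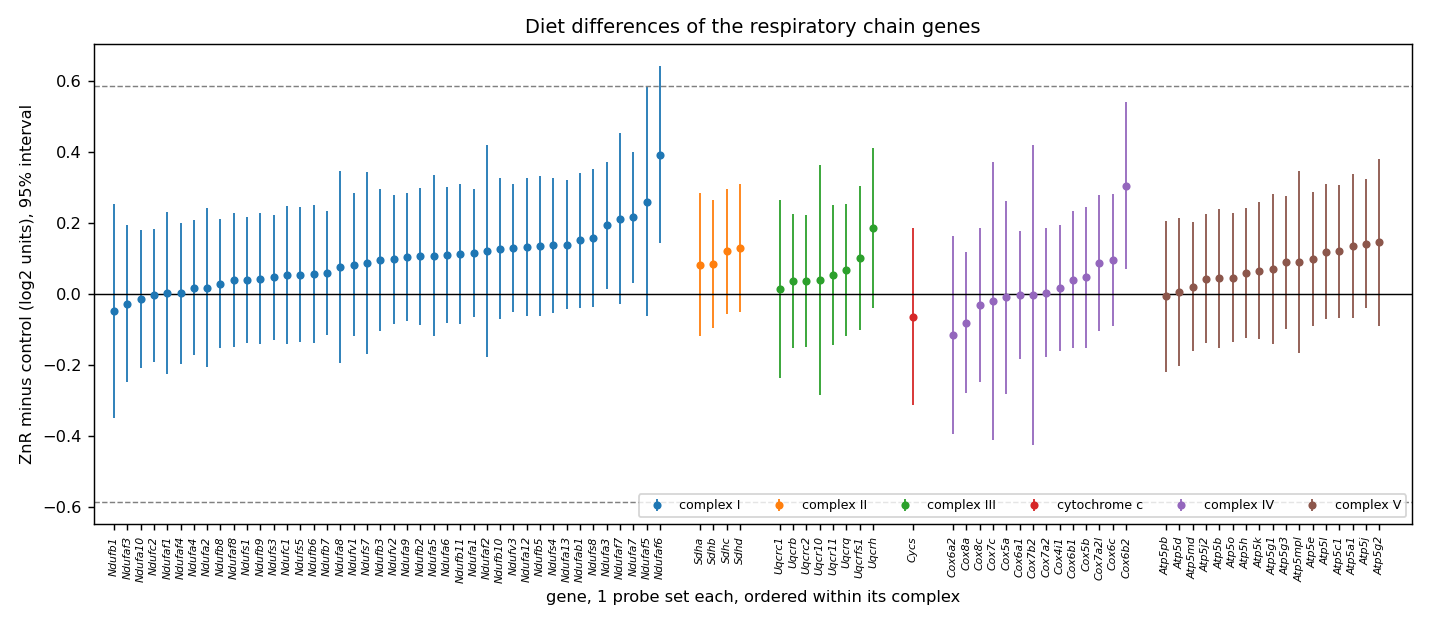
Log2 difference of ZnR minus control for the 86 chain genes with a kept probe set (vertical axis, log2 units), by complex and ordered within it; bars are 95% intervals from limma and dashed lines mark a 1.5-fold change. Points gather just above 0 in complexes I, II, III and V and around 0 in complex IV, and only the interval of Ndufaf6 crosses a dashed line.

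The 3 ZnR mice did not stand equally high. The 86 genes were centred on the mean of the 6 arrays and averaged within each mouse. The averages were 0.061, 0.065 and -0.013 in ZnR mice 3, 7 and 11, against -0.041, -0.019 and -0.053 in control mice 1, 5 and 9. ZnR mouse 11 lay nearer to the highest control than to the other ZnR mice, though every ZnR average lay above every control average. Over all 11749 genes the averages were 0.022, 0.033 and -0.0085 in ZnR mice, against -0.023, -0.0093 and -0.014 in control mice. There too every ZnR mouse lay above every control, and ZnR mouse 11 was the lowest ZnR mouse. For the chain genes, the diet means were 0.038 ± 0.044 in ZnR and -0.038 ± 0.017 in control mice (SD, n = 3 each). Their difference of 0.075 stood beside 0.031 for all 11749 genes treated alike. Of the 86 genes, ZnR mouse 3 was above all controls in 59 (68.6%), ZnR mouse 7 in 60 (69.8%) and ZnR mouse 11 in 29 (33.7%). Over all 11749 genes these shares were 38.6% for ZnR mouse 3, 37.9% for ZnR mouse 7 and 30.2% for ZnR mouse 11.

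The complexes differed in how the mice were ordered. Complex I averaged 0.063, 0.092 and -0.013 in ZnR mice, against -0.056, -0.030 and -0.055 in control mice, and complex II averaged 0.074, 0.037 and 0.045 in ZnR mice, against -0.049, -0.050 and -0.056 in control mice. In both, every ZnR mouse lay above every control. Complex III averaged 0.070, 0.065 and -0.035 in ZnR mice, against 0.015, -0.0086 and -0.11 in control mice, complex IV 0.050, 0.017 and -0.031 in ZnR mice, against -0.032, -0.0072 and 0.0038 in control mice, and complex V 0.074, 0.043 and -0.0033 in ZnR mice, against -0.034, -0.00088 and -0.079 in control mice. In these 3, ZnR mouse 11 lay within the control range. Whether the complexes differed from each other by diet was not tested.

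The groups did not overlap, with ZnR above, for 40 of the 160 probe sets, or 25%, against 13.1% of all probe sets tested. ZnR lay below for 1, the Ndufs8 probe set of lowest mean signal, or 0.625%, against 10.6%. The same 6 mice enter every gene, so these counts are not independent observations.

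**Figure D2:**
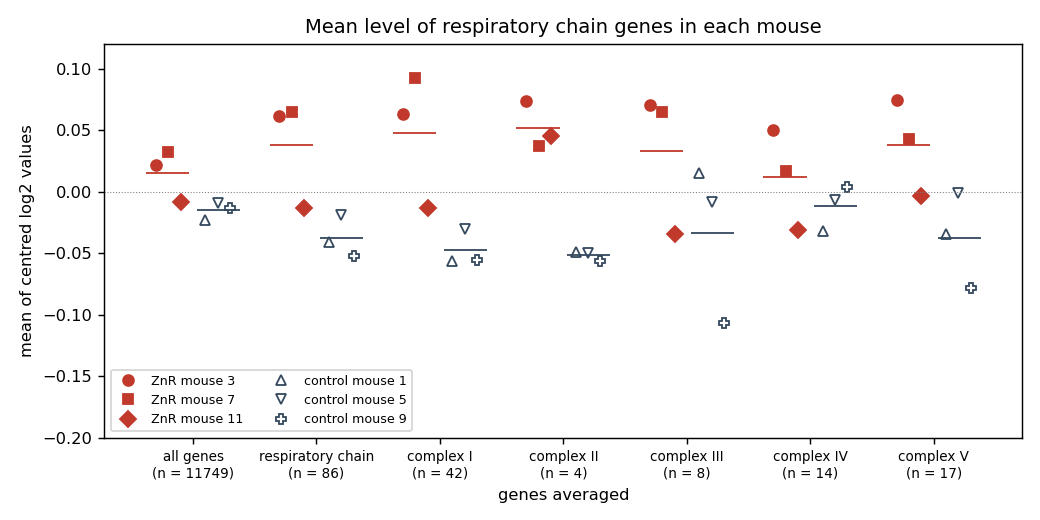
Mean of centred log2 values in each mouse (vertical axis, log2 units) over all genes, all chain genes and the genes of each complex (horizontal axis, number of genes in brackets); filled symbols are ZnR mice, open symbols control mice and lines the diet means. All ZnR mice lie above the controls for all genes, all chain genes and complexes I and II, while ZnR mouse 11 lies within the control range for complexes III, IV and V.

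Markers of several cell types were called by diet in the same arrays, and the part of cell types in these values was not tested. All 7 excitatory neuron markers that the arrays hold were above the filter. Of these, Slc17a7, Neurod6, Neurod2, Tbr1 and Nrn1 fell and 2 did not pass. On average 6 of the 7 were lower in ZnR mice and 1 was higher. The summed linear signal of the 7 was 3199 to 3901 in ZnR mice, against 6841 to 7324 in control mice. Of 10 striatal neuron markers, Drd2, Gpr6 and Isl1 rose (summed signal 25371 to 30428 in ZnR mice, 16997 to 23040 in control mice). Of 7 choroid plexus and ependyma markers, Clic6 and Tmem212 rose (490 to 580 in ZnR mice, 140 to 278 in control mice), and Folr1 and Kcnj13 of that list lay below the filter. Of 9 astrocyte markers Gfap rose. Of 9 interneuron markers, 5 averaged higher and 4 lower, with a median of 0.12, and only Vip passed, lower in ZnR mice. None passed among 8 oligodendrocyte, 7 oligodendrocyte precursor, 7 microglial, 7 endothelial, 6 mural, 4 leptomeningeal and 1 muscle markers, and no erythroid marker was above the filter. These 12 marker calls became 14 with the low-18S pair described next as a block, 0 without that pair, 0 without control mouse 5 and 1 to 5 with another mouse left out, Nrn1 being called in each of those 5 fits. In whole tissue, fewer cells of a type and less RNA per cell cannot be told apart. The 3 array control probe sets that read 18S ribosomal RNA averaged 8.44 in ZnR mouse 3 and 9.09 in control mouse 1, against 10.9 to 12.4 in the other mice. With this pair as a block 0 member probe sets passed.

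Promoter letters were read as a feature that the rule did not use. Of the 91 genes, 75 had at least 1 RefSeq promoter window (GRCm38.p6, from 250 bases before to 50 after a start, 80 windows in all), and 16 had none in the table. NRF1 is a transcription factor known for its sites in nuclear genes of the respiratory chain. Its motif, searched on both strands, was in 18 of the 80 windows or 22.5%, against 4.60% of all 32851 windows. The YY1 motif was in 6.25% against 0.852%, and the ETS motif CCGGAAGT, of the kind GABP binds, in 6.25% against 3.89%. The GC box GGGCGG was in 46.3% against 35.7%, and TATAAA in 11.3% against 13.6%. Matches of the NRF1, YY1 and ETS motifs overlapped each other in 0 member windows, and 6 windows held an NRF1 match that reads the same on both strands. Member windows had a median GC content of 59.0%, against 52.7% for all windows, and the shares were not matched for it. The median log2 difference by diet was 0.079 for the 16 tested genes with an NRF1 match and 0.077 for the 56 without.

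The stretches below are shown because they hold NRF1 matches (in capitals) in genes whose differences ran from near 0 to among the highest of their complex. They are written 5′ to 3′ on the gene's strand from the RefSeq C57BL/6J reference, a strain other than the one studied. Those of Sdha (chr13:74350241-74350360, minus strand), Sdhd (chr9:50603850-50603969, minus strand) and Atp5g2 (chr15:102671048-102671167, minus strand) are the 120 bases before the start. That of Cox6a1 (chr5:115349019-115349138, minus strand) runs from 180 to 61 bases before it.
Sdha: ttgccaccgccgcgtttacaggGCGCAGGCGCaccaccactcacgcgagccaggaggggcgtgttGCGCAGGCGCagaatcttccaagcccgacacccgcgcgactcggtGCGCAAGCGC
Sdhd: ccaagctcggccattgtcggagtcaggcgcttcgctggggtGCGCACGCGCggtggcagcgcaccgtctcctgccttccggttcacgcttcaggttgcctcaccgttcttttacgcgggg
Atp5g2: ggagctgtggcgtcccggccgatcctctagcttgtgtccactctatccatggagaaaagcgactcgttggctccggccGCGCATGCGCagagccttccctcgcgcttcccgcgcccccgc
Cox6a1: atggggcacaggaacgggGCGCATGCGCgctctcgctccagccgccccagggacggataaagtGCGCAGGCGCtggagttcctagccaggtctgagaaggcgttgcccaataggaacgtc
Sdha held 3 matches in its stretch and Cox6a1 held 2, while Sdhd and Atp5g2 held 1 each. Their differences by diet were 0.082 for Sdha, -0.0028 for Cox6a1, 0.13 for Sdhd and 0.15 for Atp5g2, none of which passed.

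Complex I had 42 genes with a kept probe set, of which 38 averaged higher in ZnR mice and 4 lower, with a median log2 difference of 0.097. Its 6 core subunits, most of which carry the flavin or iron-sulphur clusters, all averaged higher, by 0.040 to 0.16. Ndufs1, the largest iron-sulphur subunit, read 11.07, 11.06 and 11.05 in ZnR mice, against 10.99, 11.02 and 11.05 in control mice. The lowest ZnR and the highest control value were both 11.05 at 2 decimals. The difference was 0.040 ± 0.076 (SE), with a 95% interval of -0.14 to 0.22. Ndufv1, which binds NADH, measured 0.083 ± 0.086 and its partner Ndufv2 0.10 ± 0.077 (limma adjusted p = 0.683 and 0.581). Ndufs8, with iron-sulphur clusters near the quinone site, had 6 kept probe sets that ran from -0.13 to 0.16, the last being the one of highest signal. Ndufs3, another core subunit, measured 0.048 ± 0.075.

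The 28 accessory subunits, which surround the core and stabilise it, averaged higher in 25 genes and lower in 3, with a median of 0.11, and in 11 of them (39.3%) every ZnR mouse lay above every control, against 16.5% of all 11749 genes. Ndufa7 had 5 kept probe sets, all higher on average, with differences from 0.15 to 0.31. The one of highest signal read 11.35, 11.36 and 11.31 in ZnR mice, against 11.16, 11.16 and 11.06 in control mice. Its groups were apart, with a difference of 0.22 ± 0.079 and limma adjusted p = 0.225. The Ndufa7 probe set with the widest difference read 11.11, 11.07 and 11.06 in ZnR mice, against 10.78, 10.84 and 10.71 in control mice. It measured 0.31 ± 0.080 (adjusted p = 0.114), and it passed where the variance prior followed signal (adjusted p = 0.0255, range over the alternatives 0.0255 to 0.347).

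Ndufa3, a small membrane subunit, read 12.78, 12.80 and 12.77 in ZnR mice, against 12.55, 12.59 and 12.63 in control mice, on a probe set that may cross-hybridise. Its groups were apart too (0.19 ± 0.077, limma adjusted p = 0.262), and it passed with the same prior (adjusted p = 0.0372, range over the alternatives 0.0372 to 0.545). The other kept probe set of Ndufa3, not of that kind, measured 0.15, also with its groups apart. Ndufb1 measured lowest of the complex I genes, at -0.048 ± 0.13. Ndufa4, counted here with complex I by its name but found in complex IV, measured 0.018 ± 0.081.

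By the probe set of highest signal, the 2 highest differences of complex I genes were in the assembly factors Ndufaf6 and Ndufaf5. Another probe set of the accessory subunit gene Ndufa7 measured 0.31, above that of Ndufaf5. Ndufaf6 read 7.24, 7.35 and 7.03 in ZnR mice, against 6.77, 6.76 and 6.92 in control mice. All ZnR values lay above the controls, with ZnR mouse 11 nearest to them. The difference was 0.39 ± 0.11 (95% interval 0.14 to 0.64, limma adjusted p = 0.123). Of the alternatives run, Ndufaf6 passed only with array weights (0.41, adjusted p = 0.0333, range over the alternatives 0.0333 to 0.387). Ndufaf5, which hydroxylates a core subunit during assembly, read 8.99, 9.12 and 8.63 in ZnR mice, against 8.56, 8.77 and 8.63 in control mice. ZnR mouse 11 lay within the control range (0.26 ± 0.14, adjusted p = 0.395). Ndufaf3 measured -0.028 ± 0.095, and the 8 factors had a median of 0.081.

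Complex II, succinate dehydrogenase, links the citric acid cycle to the chain, and all 4 of its genes averaged higher, by 0.082 to 0.13. Sdha, the flavoprotein subunit, read 11.78, 11.60 and 11.66 in ZnR mice, against 11.57, 11.58 and 11.64 in control mice. ZnR mouse 7 lay below control mouse 9, so the groups overlapped. Sdhb, the iron-sulphur subunit, read 11.90, 11.88 and 11.87 in ZnR mice, against 11.78, 11.85 and 11.77 in control mice. The membrane anchor Sdhc read 10.65, 10.67 and 10.64 in ZnR mice, against 10.55, 10.51 and 10.53 in control mice. For both, every ZnR mouse lay above every control. The other anchor, Sdhd, read 9.42, 9.46 and 9.47 in ZnR mice, against 9.37, 9.32 and 9.29 in control mice. Its groups were apart as well, though another kept probe set of Sdhd, one that may cross-hybridise, measured -0.15. The second kept probe sets of Sdha and Sdhc, which may cross-hybridise too, measured 0.024 and 0.010, with overlapping groups. Differences were 0.082 ± 0.086 for Sdha, 0.084 ± 0.077 for Sdhb, 0.12 ± 0.075 for Sdhc and 0.13 ± 0.077 for Sdhd, with limma adjusted p from 0.451 to 0.685. All 4 intervals included 0, and their upper limits were at most 1.24-fold.

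Complex III had 8 genes, all higher on average by 0.014 to 0.19, and the groups overlapped in each of them. The Rieske iron-sulphur subunit Uqcrfs1 read 11.13, 11.22 and 11.09 in ZnR mice, against 10.97, 11.13 and 11.05 in control mice (0.10 ± 0.087, limma adjusted p = 0.611). The core protein gene Uqcrc1 read 11.57, 11.30 and 11.36 in ZnR mice, against 11.49, 11.43 and 11.26 in control mice. Its mice interleaved, and the difference was 0.014 ± 0.11. The other core protein gene, Uqcrc2, measured 0.036 ± 0.080 with another kept probe set at -0.091, and Uqcrb, a small subunit, 0.036 ± 0.081. Uqcrh, the hinge protein that touches cytochrome c1, read 12.49, 12.50 and 12.28 in ZnR mice, against 12.27, 12.30 and 12.15 in control mice. ZnR mouse 11 lay inside the control range (0.19 ± 0.10, adjusted p = 0.382).

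Cytochrome c, the carrier between complexes III and IV, is read by Cycs. Its probe set of highest signal read 12.41, 12.67 and 12.61 in ZnR mice, against 12.52, 12.60 and 12.76 in control mice. The SD within each diet was wider than the difference of -0.063 ± 0.11, and the 4 kept probe sets ran from -0.063 to 0.17.

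Complex IV, cytochrome c oxidase, stood nearest to 0 among the complexes with several genes. Of its 14 genes, 7 averaged higher and 7 lower, with a median of 0.00041. By probe set, 16 of 27 averaged higher and 11 lower, with a median of 0.010. ZnR lay above every control in 6 of the 27 (22.2%), against 13.1% of all probe sets tested. Cox4i1, the common form of the regulatory subunit, read 13.56, 13.53 and 13.50 in ZnR mice, against 13.49, 13.53 and 13.52 in control mice. The difference was 0.016 ± 0.076, with a 95% interval of -0.16 to 0.19. Cox5a, which binds a thyroid hormone metabolite in isolated enzyme, measured -0.0092 ± 0.12. Its other kept probe sets measured 0.079, with the groups apart, and -0.064, with the groups overlapping. The zinc-binding subunit Cox5b measured 0.047 ± 0.085, and its 4 kept probe sets ran from 0.047 to 0.10. The common liver-type forms Cox6a1 and Cox7a2 measured -0.0028 ± 0.077 and 0.0032 ± 0.078. Among the 10 genes counted as main subunits, Cox7a2l included, the ranking used each gene's probe set of highest signal. Cox6c had the highest difference, 0.10 ± 0.080, and Cox8a the lowest, -0.080 ± 0.085. Another kept probe set of Cox6c measured -0.030. Cox7a2l, a factor in joining complexes III and IV into supercomplexes, measured 0.088 ± 0.082. Its 3 kept probe sets ran from 0.088 to 0.20. Groups overlapped in the one of highest signal and were apart in the others. Cox7c was read at low signal (5.10 to 5.70 in ZnR mice and 5.22 to 5.45 in control mice) and measured -0.019 ± 0.17.

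The 4 tested tissue isoforms of complex IV had signals near the filter. Cox6b2, the testis form of a subunit, read 4.18, 4.29 and 4.32 in ZnR mice, against 3.80, 4.01 and 4.07 in control mice. The groups were apart, with a difference of 0.30 ± 0.10 (limma adjusted p = 0.181). Cox6a2, the heart and skeletal muscle form, read 4.29, 4.23 and 4.12 in ZnR mice, against 4.40, 4.49 and 4.10 in control mice (-0.12 ± 0.12). The others were Cox7b2 at -0.0024 ± 0.18 and Cox8c at -0.031 ± 0.093.

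Of the 5 genes with no probe set above the filter, the muscle form Cox7a1 read 3.41 to 3.85 in ZnR mice and 3.41 to 3.74 in control mice. The lung form Cox4i2 read 2.98 to 3.14 in ZnR mice and 3.09 to 3.45 in control mice. Ndufa4l2, a relative of Ndufa4 that is induced by hypoxia, read 3.39 to 3.48 in ZnR mice and 3.22 to 3.53 in control mice. The remaining untested genes were Cox8b and Ndufb4, the first read at 3.08 to 3.27 in ZnR mice and 2.94 to 3.29 in control mice and the other at 3.32 to 3.65 in ZnR mice and 3.35 to 3.74 in control mice. The ranges of the diets overlapped for all 5. Array values of the 23 probe sets that did not pass the filter ran from 2.17 to 4.13, and 18 of them belonged to genes with another probe set above it.

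Complex V had 17 genes, 16 higher and 1 lower on average, with a median of 0.070. In the F1 head, where ATP is made, the catalytic subunit gene Atp5b read 12.80, 12.68 and 12.70 in ZnR mice, against 12.62, 12.75 and 12.69 in control mice. The groups overlapped, and the difference was 0.044 ± 0.084 (95% interval -0.15 to 0.24). Its partner in the head, Atp5a1, measured 0.13 ± 0.087, with other kept probe sets down to -0.0013. Atp5c1, the rotating central shaft, read 12.69, 12.76 and 12.62 in ZnR mice, against 12.56, 12.59 and 12.56 in control mice. Its groups were apart (0.12 ± 0.080, limma adjusted p = 0.508), though its other kept probe set measured -0.0013. Atp5d, part of that shaft, measured 0.0049 ± 0.089, and Atp5e, another part, 0.10 ± 0.081.

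In the peripheral stalk, which holds the head still, Atp5j read 12.31, 12.39 and 12.31 in ZnR mice, against 12.18, 12.23 and 12.18 in control mice. Its groups were apart (0.14 ± 0.078, limma adjusted p = 0.408). Atp5pb, the only complex V gene below 0, measured -0.0057 ± 0.091. Atp5o, which joins stalk to head, measured 0.046 ± 0.078, but its other probe set, one that may cross-hybridise, measured -0.17.

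The c ring, which turns as protons pass, is encoded by 3 genes for the same mature protein. Atp5g2 read 10.98, 10.91 and 10.80 in ZnR mice, against 10.84, 10.82 and 10.60 in control mice. The groups overlapped, with control mouse 9 lowest (0.15 ± 0.10, limma adjusted p = 0.524). Atp5g1 measured 0.070 ± 0.090, with its other kept probe set at -0.18, the lowest difference of the kept chain probe sets. Atp5g3 measured 0.089 ± 0.081. The intervals of the 3 genes reached at most 0.38. Of the 17 genes of the complex 0 passed, where 1.47% of all probe sets tested were called.

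**Figure D3:**
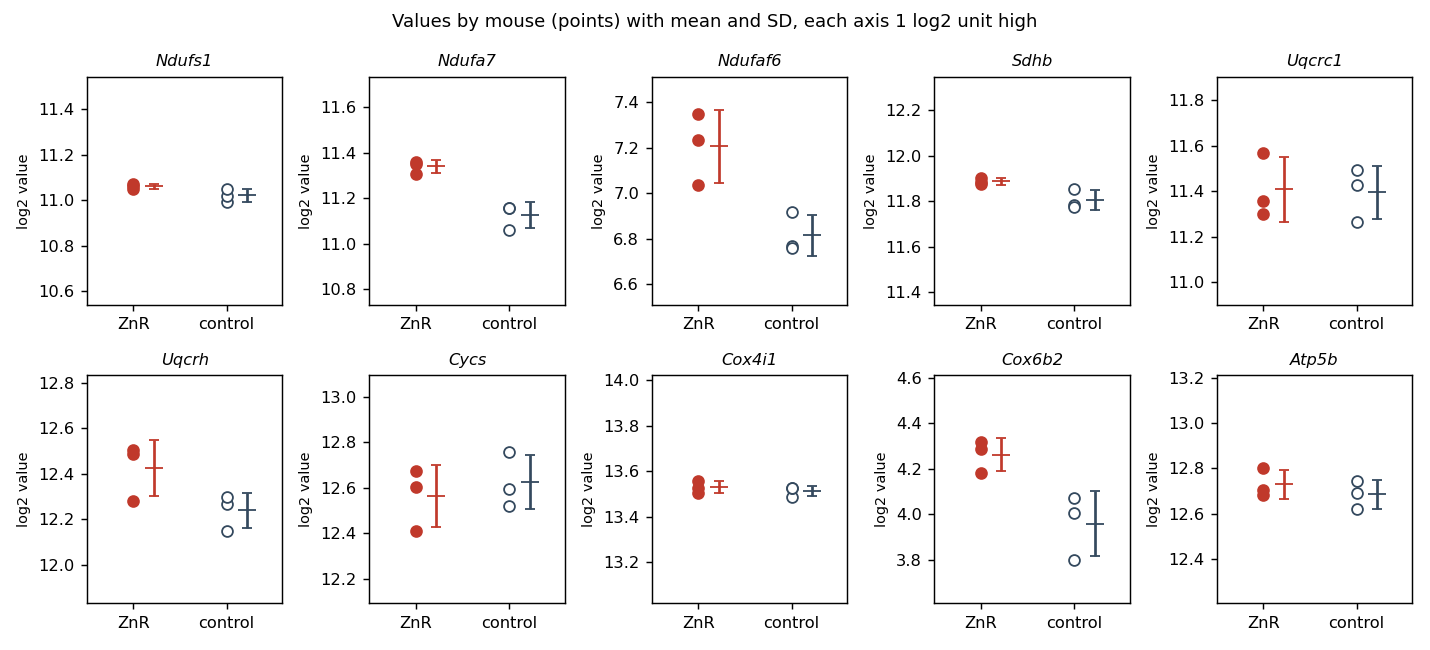
Log2 values of 10 genes in each mouse, ZnR on the left and control on the right, with the mean and SD beside the points (n = 3 per diet); every vertical axis spans 1 log2 unit. Ndufa7, Ndufaf6, Sdhb and Cox6b2 have ZnR mice above all controls, Ndufs1 meets the controls at 11.05, and Uqcrc1, Uqcrh, Cycs, Cox4i1 and Atp5b overlap.

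Probe sets of the same gene did not always point the same way. Of 48 genes with at least 2 kept probe sets, 25 had all of them on one side of 0 and 23 had both signs. Of the 160 kept probe sets, 45 had names ending in _x_at or _s_at, which mark probes that may bind related transcripts. In addition, 11 member genes, among them Cycs, Cox5b, Cox7c, Uqcrh, Atp5k and Ndufab1, have a named pseudogene in the RefSeq gene table. Signals of such genes and their copies cannot be separated here.

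Other genes of mitochondrial energy supply were also without a call. Over all 11749 genes, 77 were called higher and 149 lower. At that share, lists as short as those here and in the next paragraph hold few calls. Of 40 measured assembly factors outside the Ndufaf set, 0 passed, with a median of 0.034. Bcs1l, which inserts the Rieske subunit into complex III, read 7.30, 7.03 and 7.16 in ZnR mice, against 6.77, 6.88 and 6.78 in control mice. Uqcc1, another complex III factor, read 7.24, 7.22 and 7.11 in ZnR mice, against 6.86, 7.06 and 6.71 in control mice. Both had ZnR above every control, with differences of 0.35 ± 0.10 and 0.31 ± 0.11 (limma adjusted p = 0.124 and 0.207). Of 17 genes of the citric acid cycle and pyruvate dehydrogenase 0 passed (median 0.023), with the highest differences in Suclg2 (0.24 ± 0.12) and Idh2 (0.23 ± 0.090). Of 24 genes of carriers, protein import and chaperones 21 averaged higher, 0 passed and the median was 0.049. The chaperone Hspe1 measured 0.20 ± 0.080 and its partner Hspd1 0.16 ± 0.077. Cyc1, the cytochrome c1 gene that the rule did not take, measured 0.042 ± 0.10, and Atpif1, which encodes an inhibitor of the ATP synthase, -0.11 ± 0.089.

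None of 21 regulators of mitochondrial biogenesis passed, and their median was 0.035. The orphan receptor gene Esrrg read 7.58, 7.93 and 7.68 in ZnR mice, against 8.02, 8.18 and 8.23 in control mice. ZnR lay below every control (-0.41 ± 0.12, limma adjusted p = 0.134), and of the alternatives run it passed only with array weights (-0.45, adjusted p = 0.0284, range over the alternatives 0.0284 to 0.323). Gabpb2, which encodes a partner of the ETS factor GABP, read 6.19, 6.20 and 6.04 in ZnR mice, against 5.58, 5.91 and 5.73 in control mice. Every ZnR mouse lay above every control (0.40 ± 0.11, adjusted p = 0.117). The GABP gene Gabpa measured 0.21 ± 0.080, also with every ZnR mouse above every control. The coactivator gene Ppargc1a measured -0.038 ± 0.084, the factor gene Nrf1 0.060 ± 0.10 and the mitochondrial transcription factor gene Tfam 0.068 ± 0.083. Nrf1 was read near the filter, at 4.66 to 4.88 in ZnR mice and 4.62 to 4.86 in control mice. Of 13 glycolysis genes 9 averaged lower, 0 passed and the median was -0.071. The hexokinase gene Hk1 measured -0.22 ± 0.083 and the phosphofructokinase gene Pfkl -0.27 ± 0.10 (limma adjusted p = 0.231 and 0.240), both with ZnR below every control. Other genes of this list also had ZnR below every control, as did 11.1% of all 11749 genes. The 3 measured uncoupling protein genes ran from 0.0034 to 0.16, with Slc25a30 at 0.16 ± 0.15 and Slc25a14 at 0.066 ± 0.10.

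**Figure D4:**
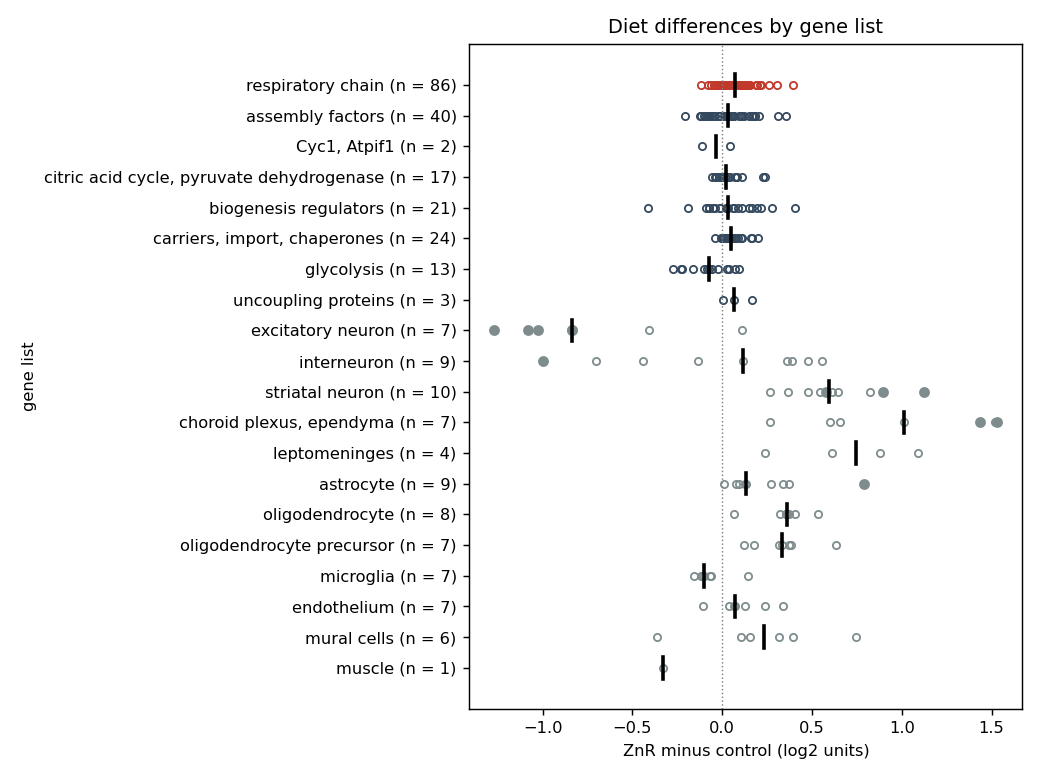
Log2 difference of ZnR minus control (horizontal axis) for the genes of each list (1 row per list, number of measured genes in brackets); open points did not pass the test, filled points passed, and the black bar is the list's median. Chain genes lie between -0.12 and 0.39 with no filled point, while excitatory neuron markers have 5 filled points below 0 and striatal markers 3 above it.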

How the data were processed

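The authors deposited log2 values per probe set from Affymetrix Mouse430_2 arrays. The submitters' processing notes name R 2.15.1 and GCRMA 2.28.0, without their roles. Per the labels' protocols, 500 ng of total RNA a mouse was labelled with the 3′ IVT Express kit. Array medians were 4.46 to 4.52, so a change of total RNA cannot be seen, and the number of arrays limits the precision. Every array was a separate mouse. Members were found through the platform annotation. All 91 symbols matched RefSeq GRCm38.p6, used for names and promoters.

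The 64 array controls were left out, and the level filter kept 25381 of the other 45037 probe sets (56.4%). Differences are ZnR minus control from limma 3.58.1 in R 4.3.3 (lmFit, eBayes), without covariates. P-values are 2-sided and were adjusted by the Benjamini-Hochberg method across every kept probe set. Errors after ± are moderated standard errors unless named SD. Tables and plots used Python 3.11.15, pandas 2.3.3 and matplotlib 3.10.9. In a simulation of this comparison over 25381 probe sets, calls were made for 15 of 50 probe sets changed by 0.5 log2 units, 40 of 50 by 1, 47 of 50 by 1.5 and 47 of 50 by 2, with 4 false calls.

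The naming rule took genes past the threshold, the 2 highest and 2 lowest differences per complex, 30 genes fixed by name, and in each pathway list the 2 of smallest p. Of the 30, 1 is not reported here. Ndufa3, Ndufa7, Ndufs3, Ndufs8, Cox7c, Cox7b2, Cox8c, Atp5e, Atp5o, Gabpa, Ppargc1a, Nrf1 and Tfam were named after their values were seen. Members, lists, rules and alternatives were chosen with earlier results of these data known. The alternatives changed the filter, the normalization, the variance prior, the moderation, array weights, probe sets that may cross-hybridise, the low-18S pair, the unit counted, the genes that are no subunits, and left out each mouse. The count of cell markers called was added to them after seeing the data.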

Additional observations from a re-analysis of the deposited data

How the results depend on the processing

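The absence of calls among chain probe sets depended on the variance model in 2 of the alternatives run. With a prior that follows signal 2 passed (Ndufa7 and Ndufa3), and with array weights 1 passed (Ndufaf6), while 0 passed under every other alternative run, each mouse left out included. Over the whole table, the 373 calls became 916 with that prior, 2003 with array weights, 3 without moderation and 1 without the low-18S pair. The array weight was 6.57 for control mouse 5 and 0.51 to 0.99 for the other mice. The control mean of the weighted fit thus leaned on control mouse 5. With ZnR mouse 3, 7 or 11 left out there were 18, 109 or 21 calls, and with control mouse 1, 5 or 9 left out 101, 1 or 77. The median over chain genes was above 0 in all alternatives run, from 0.056 with array weights to 0.091 without ZnR mouse 11. No paired analysis was possible because the diets share no mouse number and no label pairs their mice. The block of the low-18S pair was set from the arrays' 18S signals.

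Of 64 single genes followed, 18 had a sign turned by an alternative. Without the low-18S pair, Ndufb1 measured 0.049, Uqcrc1 -0.017, Atp5d -0.055, Ndufa4 -0.010, Cox4i1 -0.011, Cox5a 0.019, Cox7a2 -0.0015, Atp5b -0.025 and Cyc1 -0.077. With array weights, Uqcrc1 measured -0.012, Atp5d -0.033, Ndufa4 -0.038, Cox5a 0.031, Cox7a2 -0.0045, Cox7b2 0.054, Cox8c 0.066 and Atp5b -0.0045. With arrays centred on the median, Atp5d measured -0.0054 and Cox7a2 -0.0070, and after renewed quantile normalization Cox7a2 measured -0.0094. With a mouse left out, values ran from -0.16 to 0.044 for Ndufb1, -0.069 to 0.049 for Ndufaf3, -0.066 to 0.070 for Uqcrc1, -0.0045 to 0.059 for Uqcrb, -0.070 to 0.031 for Atp5pb, -0.057 to 0.039 for Atp5d and -0.12 to 0.013 for Cycs. They ran from -0.00042 to 0.050 for Ndufa4, -0.088 to 0.072 for Cox5a, -0.015 to 0.017 for Cox6a1, -0.021 to 0.018 for Cox7a2, -0.21 to 0.087 for Cox7c, -0.15 to 0.19 for Cox7b2, -0.092 to 0.012 for Cox8c, -0.048 to 0.11 for Cyc1 and -0.0046 to 0.14 for Slc25a14. A further 20 genes kept their sign but moved by over 1.5 times with a mouse left out, from 0.15 to 0.40 for Ndufaf5, 0.031 to 0.12 for Sdha, 0.062 to 0.14 for Uqcrfs1, -0.23 to -0.036 for Cox6a2, -0.13 to -0.042 for Cox8a, 0.058 to 0.12 for Cox6c and 0.068 to 0.19 for Atp5g2. Likewise they moved from 0.026 to 0.055 for Ndufs1, 0.048 to 0.14 for Ndufv1, 0.0058 to 0.058 for Uqcrc2, 0.012 to 0.086 for Cox5b, 0.046 to 0.13 for Cox7a2l, 0.0094 to 0.10 for Atp5g1 and 0.018 to 0.060 for Atp5o, and from 0.16 to 0.34 for Suclg2, -0.18 to -0.080 for Atpif1, 0.066 to 0.33 for Slc25a30, -0.073 to -0.0013 for Ppargc1a, 0.0032 to 0.14 for Nrf1 and 0.039 to 0.11 for Tfam. The cause was not tested.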
